A study of Homo sapiens with 13 samples.

Results

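Binding of the splicing factor SRSF2 was compared between its wild type form (WT) and the P95H form in windows that lie in pseudogenes. The members were the windows of the authors' HITS-CLIP comparison whose transcript class is a pseudogene, each position counted once by its first entry. They numbered 1023 of 8100 windows and fell in 282 pseudogenes. A window is a stretch of RNA of fixed short length, 20 or 21 bases from start to end. All 1023 members lay on the strand of their pseudogene, and 1022 lay inside its annotated span. The class of the members was processed pseudogene for 832 windows, transcribed processed for 115, transcribed unprocessed for 54, unprocessed for 21 and unitary for 1.

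The cells were HEL, a human erythroleukemia line, carrying a stable SRSF2 construct of either WT or P95H sequence. HITS-CLIP, in which protein and RNA are crosslinked by ultraviolet light and the RNA held by the tagged protein is recovered and sequenced, used 4 WT and 4 P95H samples given doxycycline at 1 µg/ml for 36 hours and an antibody to the Flag tag. RNA-seq after removal of ribosomal RNA used 2 WT and 2 P95H samples given the same dose for 48 hours, and 1 P95H sample labelled uninduced. All groups thus carried a construct, no sample without one was part of the comparison, and the labels do not say whether a line is 1 clone. The numbered samples are called biological replicates, and nothing says how the cultures were kept apart, so p-values may measure technical spread only. RNA-seq libraries held 37414093 to 45005605 counts, so that 3 counts corresponded to 0.0667 to 0.0802 CPM, the counts scaled to the size of the library. Markers of the erythroid and megakaryocytic character of HEL cells were present in all 5 libraries, with GATA1 at 124 to 161 CPM and ITGA2B at 503 to 810 CPM, while the epithelial marker EPCAM had no count in any library and the T cell marker CD3E at most 0.0220 CPM.

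A pseudogene is a copy of a gene that no longer encodes the full protein. Processed pseudogenes arose when a messenger RNA was copied back into the genome, so they lack introns and resemble the mature transcript of the parent. Unprocessed pseudogenes arose by duplication of a stretch of genome and keep introns. SRSF2 is an SR protein that binds short sequences in exons through its RNA recognition motif and promotes exon inclusion. Proline 95 lies beside that motif, and changes there recur in myelodysplastic syndromes. Because copies resemble their parent, a short read from one can fit the other, and the sources used here do not say how such reads were assigned.

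A parent was taken from the symbol. The ending P with a number was removed and what was left had to be a protein-coding gene of the count table. This gave a parent for 174 pseudogenes (683 windows) by the deposited symbol and for 41 more (173 windows) by the current symbol of the same Ensembl identifier, and left 67 pseudogenes (167 windows) without one. There were 82 parents, and 73 of them had windows of their own. Those 73 held 759 windows, set against 846 windows in their 205 pseudogenes.

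Sequence could be read for the few windows within reach of a gene start in the RefSeq promoter table (GRCh38.p14, files on GRCh38.p3), which were 9 pseudogene windows, all in HERC2P9, and 3 parent windows in UPF3A. The pair below is shown because windows at other loci carry the same or nearly the same values as these bases. The UPF3A stretch (chr13:114291638-114291661, plus strand) joins 2 windows, and capitals mark the 18 bases that both hold.

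UPF3A: ttcGAGAAGAGAAGCGAGAAGaac

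The HERC2P9 stretch (chr15:28612072-28612095, plus strand, within a transcribed unprocessed pseudogene) joins 3 windows that carry 1 set of values, and capitals mark the 19 bases that all 3 hold.

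HERC2P9: gagATGGGCTCTGTGGTCTGTGga

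G and A made up 79.2% of the UPF3A stretch and 58.3% of the HERC2P9 stretch. Windows with sequence were searched on both strands for GGNG and CCNG, which are recognition sequences known for SRSF2, do not overlap each other in definition, and have N for any base. Neither was found on the strand of the window in any of the 12, and on the other strand CCNG was found 1 time, in the third UPF3A window (start 114291690). At the same place in the 35116 sequences of the promoter table, stretches of the same length held GGNG in 33.0% to 44.7% and CCNG in 37.6% to 41.9%. A search of this kind says only which letters these windows hold.

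The first UPF3A window (start 114291638) stood at a log2 change of P95H over WT of -3.24 in the authors' deposited table, with the authors' mean of 6.41 CPM in WT and 0.60 CPM in P95H. A window of UPF3AP1 on chromosome 17 (16746355 to 16746375, minus strand) had the same 6 values, that is log2 change, adjusted p, both means and both standard errors. The 3 HERC2P9 windows stood at 1.22 in the authors' deposited table (adjusted p 0.0149), with the authors' means of 4.40 CPM in WT and 10.37 CPM in P95H. Windows of HERC2 (28299480 to 28299500, minus strand) and HERC2P2 (22516890 to 22516910, plus strand) on the same chromosome stood at 1.23 in the authors' deposited table, with means of 4.39 and 10.37 CPM. UPF3A is a factor of nonsense-mediated decay, and HERC2 is a large ubiquitin ligase with many partial duplicates on chromosome 15.

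Most pseudogene windows were lower in P95H. Of the 1023, 879 (85.9%) were lower and 144 (14.1%) were higher, while 77.7% of all windows were lower and 22.3% higher. Every entry of the table had passed the authors' threshold (adjusted p of at most 0.05 and at least a 2-fold change), so windows without a difference were not part of it and no test of these shares was made. Windows overlap and copies share sequence, so the members are not independent of each other. The lower share rested on the copies of 3 genes. In the pseudogenes of PTMA, HMGB1 and NPM1, 2 of 489 windows were higher, and among the other 534 windows 142 (26.6%) were higher. Counted once per pseudogene by the sign of its median, 26.6% (75 of 282) were higher, and with overlapping windows joined, 98 of 368 regions (26.6%). The 22.3% of all windows was not recounted in these ways, so it is not a like comparison for these shares.

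By their medians the falls were similar in size to those of the table as a whole, and the rises were smaller. The median log2 change was -1.51 for pseudogene windows and -1.62 for all windows. Among lower windows the medians were -1.84 and -1.96, and among higher windows 1.56 and 2.04. The levels were higher, with a median of the authors' WT mean of 9.18 CPM per window against 3.03 CPM over the table, and of the P95H mean of 2.76 against 1.36 CPM. This too rested on the copies of PTMA, HMGB1 and NPM1, whose windows had a median WT mean of 37.6 CPM, while the other 534 pseudogene windows had one of 2.52 CPM, below that of the table. No test was made of these differences.

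**Figure D1:**
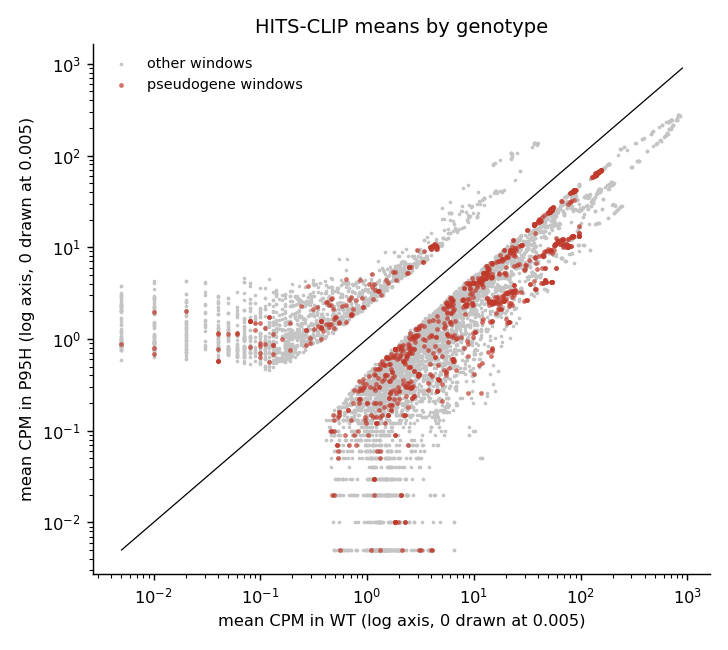
Each point is 1 window, with the authors' mean CPM over 4 WT samples on the horizontal log axis and over 4 P95H samples on the vertical log axis, pseudogene windows in red and all others in grey, and equal levels along the line. Windows near the line are missing because the table holds changes of at least 2-fold, and most red points lie under it, 879 of 1023.

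Direction is given by class of pseudogene with no test. Windows higher in P95H made up 11.5% of those in processed pseudogenes (96 of 832) and 4.35% in transcribed processed ones (5 of 115). In transcribed unprocessed pseudogenes they made up 63.0% (34 of 54, in 13 genes), and in unprocessed ones 38.1% (8 of 21, in 17 genes). Copies of HERC2 held 32 windows, 30 of them higher, and thus most of the higher windows in duplicated pseudogenes. The single window in a unitary pseudogene, HIST3H2BA, was higher.

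Parents that encode acidic and chromatin proteins held the largest share, with 526 windows in 57 pseudogenes of 8 parents. Of these windows 523 were lower in P95H and 3 were higher. The median log2 change was -2.35 in the copies and -1.91 in the 456 windows of the parents, of which 449 were lower. The authors' means had medians of 31.6 CPM in WT and 6.39 CPM in P95H over these copy windows.

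HMGB1 encodes a high mobility group protein that bends DNA and ends in an acidic tail. Its 17 pseudogenes held 179 windows and all were lower in P95H, with a median of -2.80, beside -2.74 for the 38 windows of HMGB1, also all lower. The highest level was in HMGB1P5 on chromosome 3 (22382355 to 22382375, plus strand), where the authors' mean was 96.5 CPM (SEM 84.7) in WT and 14.3 CPM (SEM 12.6) in P95H, a log2 change of -2.80 in the authors' deposited table (adjusted p 1.51e-08). The nearest HMGB1 window in value (chromosome 13, 30461448 to 30461468, minus strand) stood at 96.56 and 14.27 CPM, which is within 0.210% for all 4 values. The SEM nearly equals the mean in WT, so a single WT sample supplied most of that level. The steepest fall was in HMGB1P1 on chromosome 20 (57488483 to 57488503, minus strand), from 11.58 to 0.26 CPM, a log2 change of -5.72 in the authors' deposited table.

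In most of the HMGB1 copies with many windows these sat near the end of the annotated span. HMGB1P5, with a longer span, was an exception by its range, though many of its start positions were those of other copies. RP11-673C5.1, now named HMGB1P6, held 36 windows starting 473 to 593 bases from its start, in a span of 646 bases. HMGB1P1 held 21 between bases 517 and 579 of 636, HMGB1P37 held 19 between 454 and 556 of 609, and HMGB1P11 held 16 between 524 and 572 of 637. HMGB1P8, with a span of 949 bases, held 18 between 845 and 906. In HMGB1P5, which has a longer span, the windows ran from base 81 to base 588 of 1111. Of its 20 start positions counted from the gene start, 11 were shared with HMGB1P4 and 9 with HMGB1P1. Values in the copies were partly those of the parent, since 47 of the 179 windows lay within 5% of an HMGB1 window in both means and both SEMs. Those were mostly in HMGB1P6 (31 of its 36) and HMGB1P5 (14 of 20), while none of the windows of HMGB1P1, HMGB1P8 or HMGB1P11 did.

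PTMA encodes prothymosin alpha, a small and very acidic nuclear protein. Its 10 pseudogenes held 219 windows, 217 lower and 2 higher, with a median log2 change of -1.47, beside -1.93 for the 103 windows of PTMA, of which 101 were lower. Both higher windows were in PTMAP2, at 1.88 (start 118974020) and 1.10 (start 118974042) in the authors' deposited table. The highest level was in PTMAP5 on chromosome 13 (81690119 to 81690139, plus strand), with the authors' means of 148 CPM (SEM 91.2) in WT and 66.8 CPM (SEM 34.3) in P95H, a log2 change of -1.15 in the authors' deposited table (adjusted p 0.0187). A second window of PTMAP5 (81690208 to 81690228) went from 1.08 CPM in WT to 0 in P95H, and stood at -6.62 in the authors' deposited table.

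PTMA copies showed separate clusters of windows with unlike changes. In PTMAP4, on chromosome 12, 33 windows started between 11 and 199 bases from its start, in a span of 346 bases. Its median log2 change was -1.08, yet the window 166 bases in (9240145 to 9240165, minus strand) stood at -5.46 in the authors' deposited table, with the authors' means of 8.84 and 0.26 CPM. RP11-267J23.4, now named PTMAP9, lies on the same chromosome and held 42 windows between bases 11 and 196 of 327, with a median of -1.09 and a lowest value of -4.12. Of the distinct start positions counted from the gene start, 30 in PTMAP4 and 39 in PTMAP9, 28 were shared. Over those the ratio of the authors' WT means had a median of 1.00, and 26 of the 28 were within 5%. PTMAP4 and PTMAP8 also shared 10 start positions, at which PTMAP4 had the higher WT mean by a median ratio of 7.75. PTMAP2 and PTMAP8 shared 17 with a median ratio of 1.04. Of the 219 windows in PTMA copies, 7 lay within 5% of a PTMA window in both means and both SEMs. That limit also left out near matches. The PTMA window nearest in value to the highest one of PTMAP5 stood at 148.38 CPM in WT and 67.8 CPM in P95H. It differed by 6.69% at most over the 4 values, in the P95H SEM.

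**Figure D2:**
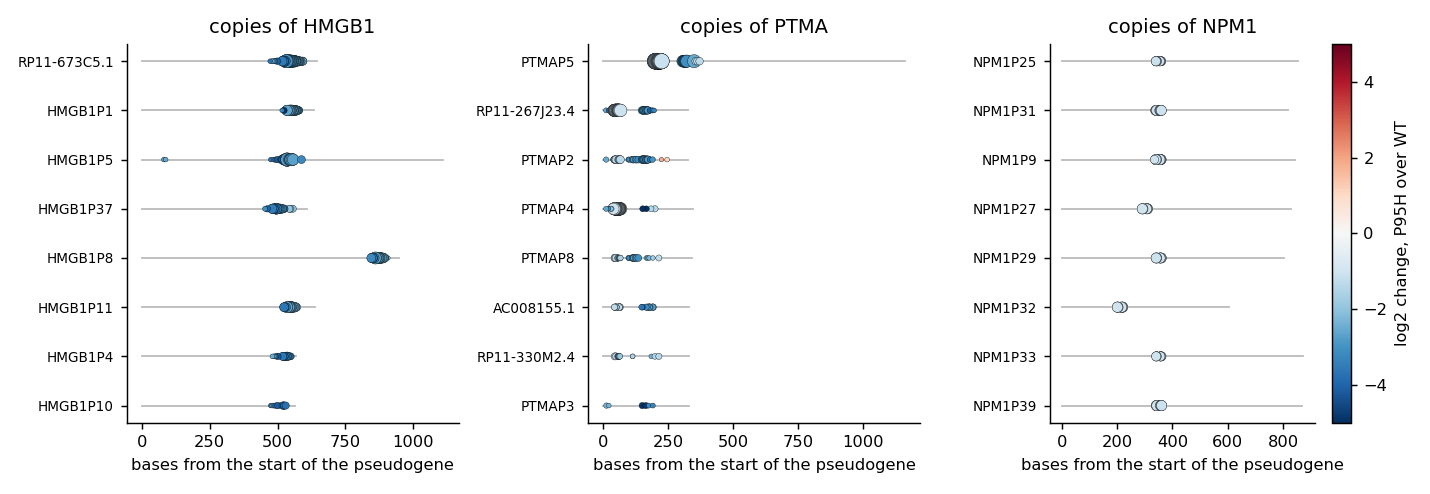
For each of HMGB1, PTMA and NPM1, the 8 pseudogenes with the most windows are drawn, and each dot is 1 window placed by its distance in bases from the start of the pseudogene (grey line, its span), coloured by log2 change of P95H over WT and sized by the authors' WT mean CPM. Windows in most HMGB1 copies gather near the end of the span (473 to 593 of 646 bases in RP11-673C5.1). Those in HMGB1P5 run from 81 to 588 of a longer span of 1111, and 11 of its 20 start positions are those of HMGB1P4. Windows in NPM1 copies gather in 1 narrow place, and those in PTMA copies in 2 or more places.

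NPM1 encodes nucleophosmin, an acidic nucleolar chaperone. Its 21 pseudogenes held 91 windows, all lower in P95H and by little, with a median log2 change of -1.06 against the table's limit of 1. The highest was in NPM1P31 on chromosome 10 (124867865 to 124867885, plus strand), at -1.01 in the authors' deposited table with the authors' means of 55.3 CPM (SEM 35.2) in WT and 27.5 CPM (SEM 12.5) in P95H. The largest fall was in NPM1P4 (chromosome 13, 27696708 to 27696728, minus strand), at -3.09 in the authors' deposited table. NPM1 itself had 7 lower and 4 higher windows, with a median of -1.04, and no higher window appeared in a copy. In NPM1P25 all 9 windows started 340 to 359 bases from the start of a span of 854 bases. NPM1P29 and NPM1P31 shared 7 start positions, with a median ratio of the WT mean of NPM1P29 to that of NPM1P31 of 0.954. Of the 91 windows, 41 were within 5% of an NPM1 window.

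HMGB2 and HMGB3, relatives of HMGB1, had copies with the same direction as the parent. HMGB2P1 held 15 windows, all lower, with a median of -1.68 beside -1.85 for 89 windows of HMGB2. The 4 HMGB3 pseudogenes held 11 windows, all lower, with a median of -2.58 beside -2.83 for 16 windows of HMGB3. In HMGB3P24 (chromosome 9, 36303586 to 36303606, minus strand) the authors' mean was 19.3 CPM in WT and 2.58 CPM in P95H, a log2 change of -3.03 in the authors' deposited table. None of the HMGB3 copy windows lay within 5% of a parent window.

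RNA-binding proteins gave 69 windows in 23 pseudogenes, 16 higher and 53 lower, with a median of -1.35 beside -1.36 for 43 windows of the parents. HNRNPA1, a splicing repressor, had 15 pseudogenes with 53 windows, 10 higher and 43 lower, and 21 windows of its own, 5 higher and 16 lower. Higher and lower windows occurred in the same copy. In HNRNPA1P7 on chromosome 18, the window at 32413045 to 32413065 stood at -1.31 in the authors' deposited table (13.2 and 5.20 CPM), and the window at 32412534 to 32412554 stood at 3.61 in the authors' deposited table (0.06 and 1.16 CPM). The nearest parent windows stood at -1.34 and 3.56 in the authors' deposited table. HNRNPA1P10 and HNRNPA1P7 shared 9 start positions, and 8 of these had WT means within 5%. YBX1, a cold shock domain protein, was an exception in this group by its medians. All 6 windows in its copies were higher (median 1.24), and its own 7 were 2 higher and 5 lower (median -1.04). Of the 6 copy windows 3 lay within 5% of a YBX1 window, and the highest P95H mean was 9.54 CPM in copies and parent.

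**Figure D3:**
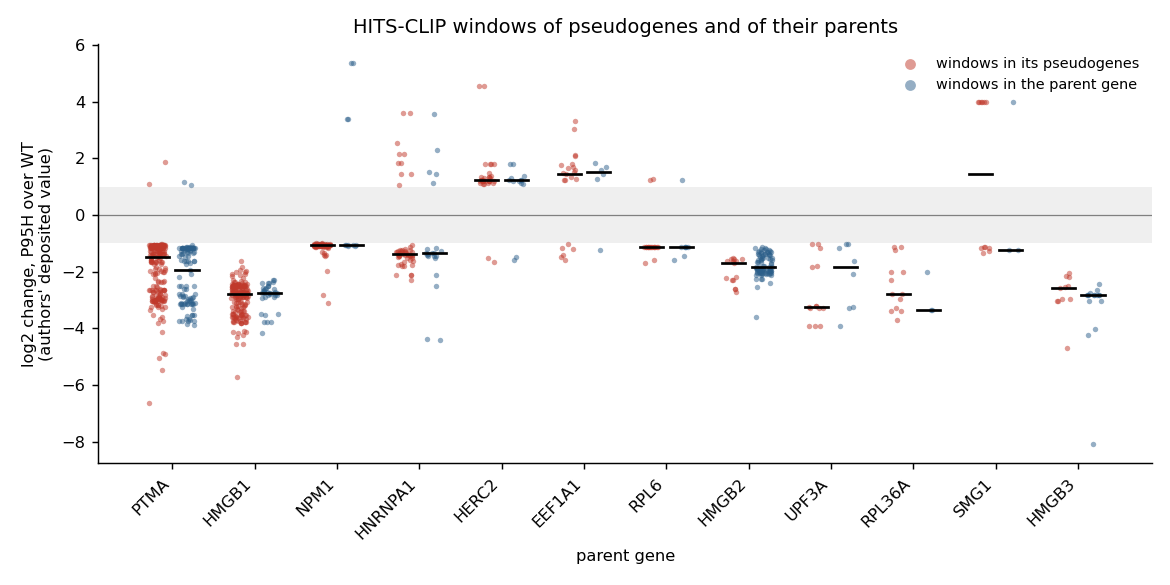
Each point is 1 window, red for pseudogenes and blue for the parent gene, placed by the authors' log2 change of P95H over WT, with black bars at the medians and grey for the range that the table leaves out. In 11 of the 12 families the medians have the same sign, and in SMG1 they do not (1.44 in the copies, -1.22 in the parent). The SMG1 copies hold 6 higher and 6 lower windows, so their median falls between the 2 kinds, and SMG1 holds 1 higher and 2 lower.

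Ribosomal protein genes, which are among the most copied genes of the human genome, gave 86 windows in 48 pseudogenes, 26 higher and 60 lower. The median was -1.14 in copies and in the 66 parent windows, of which 22 were higher. Several parents had copies of 1 direction or nearly so, with no test made. All 13 windows in copies of RPL36A were lower (median -2.78, parent -3.37), as were 16 of 18 in copies of RPL6 (median -1.14, parent -1.14). Of those 18, 12 carried 1 set of 6 values that windows of RPL6 also carried, so they are not separate observations. All 8 in copies of RPS3A were higher (median 1.84, parent 2.00), and all 4 in copies of RPLP0 (median 1.60, parent 1.61). Each RPS3A copy had its windows 190 and 207 bases from its start, so the 8 repeat the same places. Their levels were low, with the authors' means of up to 0.72 CPM in WT and 1.89 CPM in P95H. All 3 in copies of RPL10 were also higher, with a median of 3.43. Copies of RPL4 were mixed, with 4 higher and 2 lower windows. All 3 windows in copies of RPSA were lower (median -1.85), and the 1 window of RPSA was higher (1.22 in the authors' deposited table). In RPL6P27 (chromosome 18, 6462316 to 6462336, minus strand) the authors' mean was 14.9 CPM (SEM 6.57) in WT and 6.63 CPM (SEM 5.67) in P95H, a log2 change of -1.14 in the authors' deposited table.

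Translation factors were the group with more higher than lower windows, 21 against 8 in 20 pseudogenes, with a median of 1.46. Their parents had 9 higher and 2 lower windows, with a median of 1.60. EEF1A1, the elongation factor that brings transfer RNA to the ribosome, had 15 pseudogenes with 22 windows, 16 higher and 6 lower, and 6 windows of its own, 5 higher and 1 lower. In RP11-553P9.1 (chromosome 4, 135046339 to 135046359, plus strand) the authors' mean went from 0.24 CPM (SEM 0.13) in WT to 2.27 CPM (SEM 1.23) in P95H, a log2 change of 3.05 in the authors' deposited table. EEF1A1P9 went the other way at 105484818 to 105484838 on the same chromosome, from 9.86 CPM (SEM 3.88) to 4.23 CPM (SEM 1.82), which is -1.19 in the authors' deposited table. EIF4B, an initiation factor that aids the unwinding of messenger RNA, had 5 copy windows and 4 of its own, and all were higher. Start positions recurred between copies, so not all of these windows are separate observations. EEF1A1P5, EEF1A1P6, EEF1A1P11 and EEF1A1P14 each had a window 310 bases from the start. EIF4BP2, EIF4BP3 and EIF4BP6 each had a window at 499 bases. The 14 windows in copies of cytoskeletal genes were 3 higher and 11 lower, the 5 of metabolic enzymes were all lower, and the 3 of chaperones were 1 higher and 2 lower. The symbol rule left other chaperone copies out of that group. Among them were HSP90AA2P with 21 windows and HSP90AB3P with 3, all lower.

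HERC2, UPF3A and SMG1 lie outside these groups, and values of their copies were often the same to the last digit. The copies of HERC2 and SMG1 are unprocessed, and the 3 of UPF3A are processed. HERC2 copies held 32 windows with a median of 1.23, beside 1.23 for 13 windows of HERC2, and 27 of the 32 were within 5% of a parent window. HERC2P2 reached the highest level in WT (chromosome 15, 22516899 to 22516919, plus strand), with the authors' means of 4.49 CPM (SEM 2.71) and 10.0 CPM (SEM 6.25), and stood at 1.14 in the authors' deposited table. UPF3A copies held 14 windows, all lower, with a median of -3.23, beside -1.85 for 8 windows of UPF3A. In UPF3AP1 the window at 16746378 to 16746398 on chromosome 17 fell from 4.52 to 0.27 CPM, and stood at -3.93 in the authors' deposited table. UPF3A, UPF3AP1, UPF3AP2 and UPF3AP3 each had a window with these 6 values.

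SMG1, a kinase of nonsense-mediated decay, had 7 pseudogenes with 12 windows, 6 higher and 6 lower. All 6 higher ones stood at 4.00 in the authors' deposited table (adjusted p 1.29e-07), with the authors' means of 0.08 CPM (SEM 0.03) in WT and 1.56 CPM (SEM 1.29) in P95H. SMG1 and SMG1P5, the latter under another transcript class, had windows with the same values, which makes 8 genes. The 6 lower windows were higher in level, up to 3.04 CPM in WT in SMG1P5 (chromosome 16, 30268971 to 30268991, minus strand), which stood at -1.12 in the authors' deposited table.

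Over all 73 parents with windows of their own, the median of the copies had the sign of the parent's median in 69 and the other sign in 4, namely SMG1, YBX1, RPSA and XRCC6. SMG1, YBX1 and XRCC6 also had higher windows of their own, 1 of 3, 2 of 7 and 1 of 6, and the SMG1 copies were split evenly. In 34 parents with at least 3 copy windows the difference between the medians was 0.16 in the middle case and 3.07 in the largest. Across those 34 families Pearson's r of the medians was 0.877, a description over points that share the same 8 samples. Copy and parent are not independent here, since 275 of 846 copy windows had a parent window within 5% in value. Of all windows 77.7% were lower, so many signs would be the same for that reason alone. The likeness of copies and parents was not tested.

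Of the 846 copy windows with a parent to compare, 275 (32.5%) had a parent window within 5% in both means and both SEMs, 370 (43.7%) within 10% and 58 the same 6 values. A window that was neither in the pseudogene class nor of the parent lay as close, within 5%, for 122 (14.4%). That count could include windows listed under another class at the same pseudogene or at sister copies. Copies of HMGB1, HERC2 and PTMA held 29, 27 and 26 of the 122. Restricting to windows of at least 5 CPM, 181 of 558 (32.4%) were within 5% of a parent window, and 85 within 5% of such another window. In the whole table, 61 sets of genes had windows with the same 6 values that took in a pseudogene, covering 106 of the 1023 windows (10.4%) in 64 pseudogenes. The CHCHD2 set held CHCHD2, CHCHD2P6, CHCHD2P7 and CHCHD2P9 at -4.35 in the authors' deposited table. Windows that carry the same values at several loci cannot be told apart as separate binding events.

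The largest rises were at low levels. CTD-2287O16.1 (chromosome 5, 116052079 to 116052099, minus strand) stood at 6.58 in the authors' deposited table, with 0 CPM in WT and 0.89 CPM (SEM 0.83) in P95H. RPL7AP6 (chromosome 14, 69885785 to 69885805, minus strand) stood at 5.90 in the authors' deposited table, from 0.01 to 1.95 CPM (SEM 1.61). HIST3H2BA, related to histone H2B genes, stood at 5.53 in the authors' deposited table, from 0.02 to 2.03 CPM. MTND2P28, a nuclear copy of the mitochondrial ND2 gene, stood at 5.0 in the authors' deposited table, from 0.01 to 0.79 CPM. CTD-2554C21.1 stood at 4.74 in the authors' deposited table, and RP11-467L19.8, HERC2P7 and HERC2P11 shared the value 4.55 in the authors' deposited table with the authors' means of 0.04 and 0.57 CPM. No P95H mean among these 8 exceeded 2.03 CPM. A window of IST1, outside the pseudogene class, had the same 6 values as that of CTD-2554C21.1. The RPL7AP6 window lay within 5% of a window of its parent RPL7A.

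The largest falls were also mostly at low P95H levels. GOLGA6L5P (chromosome 15, 84511959 to 84511979, minus strand) stood at -8.70 in the authors' deposited table, with 4.07 CPM (SEM 4.04) in WT and 0 in P95H. GOLGA6L17P (chromosome 15, 82524375 to 82524395, plus strand) stood at -8.66 in the authors' deposited table, with 3.97 CPM (SEM 3.93) and 0. In both the SEM was nearly the mean, as it is when 1 sample of 4 holds nearly all of the signal. CACYBPP2 stood at -6.25 and GOLGA6L3 at -5.86 in the authors' deposited table, with WT means of 0.56 and 1.83 CPM. HMGB1P1, PTMAP4 and PTMAP5, described above, were also among the largest falls. The GOLGA6L5P window had the same 6 values as a window of GOLGA6L4, and the CACYBPP2 window the same 6 as one of CACYBP. Neither of those 2 genes' windows was in the pseudogene class.

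The pseudogene with the highest level of all had no parent by its symbol. RP11-529H20.3 (ENSG00000259020, chromosome 14, 92026566 to 92026887, plus strand) held 38 windows, all lower, starting 26 to 181 bases from its start. Its highest window had the authors' means of 156 CPM (SEM 88.9) in WT and 69.6 CPM (SEM 34.2) in P95H, and stood at -1.17 in the authors' deposited table. HSP90AA2P, a copy of a heat shock protein gene that the symbol rule left without a parent, held 21 windows, all lower, with a median of -1.35. Windows without a parent numbered 23 higher and 144 lower, with a median of -1.38.

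The spread within a genotype was wide. With 4 samples, an SEM above 0.577 of the mean can arise only if 1 sample holds more than 50% of the summed CPM. Among pseudogene windows that were higher in WT and had a WT mean of at least 1 CPM, this held for 685 of 834 (82.1%), beside 79.9% outside pseudogenes. The SEM was at least 0.9 of the mean in 175 of the 834. Among windows higher in P95H it held for 91 of 124 (73.4%), beside 76.7% outside pseudogenes. The ranges of mean ± SEM of the 2 genotypes overlapped in 802 of 1023 pseudogene windows (78.4%) and in 67.4% of the others. Values by sample were not part of the table, so which sample was high is unknown.

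RNA-seq counts were used to compare the RNA level of the pseudogenes between genotypes, and no pseudogene passed the test. In such bulk libraries fewer cells with an RNA and less of it per cell cannot be told apart. Of the 282 pseudogenes, 187 passed the filter on low counts and 95 did not. In edgeR's quasi-likelihood test on group alone, 0 of the 187 passed a Benjamini-Hochberg adjusted p of 0.05, where 0 of 22007 genes did (0% of all genes tested). At an unadjusted p under 0.05 there were 0 of 187, beside 227 of all genes (1.03%). DESeq2 also called 0 genes, with 98 at an unadjusted p under 0.05. With the replicate number as a block edgeR called 84 of all genes (0.382%), and without the filter on low counts 15 (0.0385%), with 0 of the pseudogenes in either. The log2 changes of the 187 ran from -1.05 to 0.97, with 78 positive and 109 negative and a median of -0.03, beside 0.002 for all genes. That median was 0.34 without WT replicate 1 and -0.26 without WT replicate 2. The 2 groups did not overlap in 29 of the 187, where 24.1% of all genes had no overlap. Of the 82 parents 80 were tested and none passed, with log2 changes from -0.24 to 0.37.

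The pseudogenes with the highest RNA-seq CPM were copies of HERC2, EEF1A1, NPM1 and SMG1, and MTND2P28. HERC2P3 stood at 112 and 131 CPM in WT, 120 and 131 in P95H and 148 in the library labelled uninduced, and the groups overlapped (log2 change 0.05, SE 0.12). HERC2P2 stood at 40.3 and 55.1 CPM in WT and 46.4 and 58.0 in P95H, and HERC2P9 at 40.3 and 52.8 CPM in WT and 42.8 and 50.8 in P95H. In these copies the replicate 2 libraries were the higher ones in both genotypes. EEF1A1P5 had the reverse order, at 66.6 and 41.4 CPM in WT and 54.5 and 44.5 in P95H (log2 change -0.12, SE 0.23). MTND2P28 differed most between replicates, at 36.5 and 137.7 CPM in WT and 38.9 and 150.5 in P95H, with 119.7 in the library labelled uninduced. Its log2 change between genotypes was 0.13 with an SE of 0.75, beside the rise of 5.0 for its window in the authors' deposited table.

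Copies with many windows did not pass the RNA-seq test either. HMGB1P6 (RP11-673C5.1) stood at 13.8 and 11.8 CPM in WT and 13.3 and 10.6 in P95H, with a log2 change of -0.09 (SE 0.19). PTMAP5 stood at 5.39 and 4.58 CPM in WT and 4.26 and 5.42 in P95H, with a log2 change of -0.03 (SE 0.23). NPM1P27 stood at 21.5 and 15.4 CPM in WT and 16.8 and 17.4 in P95H, with a log2 change of -0.10 (SE 0.19). In each of these the groups overlapped. PTMAP2 did not overlap, at 7.21 and 7.55 CPM in WT and 6.82 and 6.12 in P95H, with a log2 change of -0.18 (SE 0.19) that did not pass. Among the parents, HMGB1 stood at 547 and 502 CPM in WT and 537 and 499 in P95H, with a log2 change of -0.01 (SE 0.12).

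**Figure D4:**
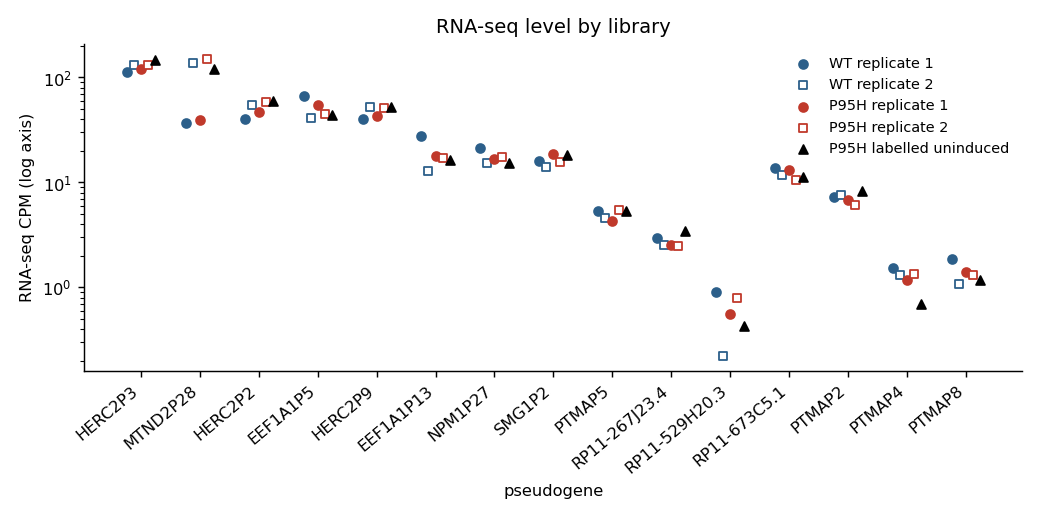
RNA-seq CPM (log axis) in each of the 5 libraries for the 8 pseudogenes with the highest mean and the 7 with the most HITS-CLIP windows. WT and P95H libraries interleave for most, and MTND2P28 separates by replicate number (36.5 and 38.9 CPM in the replicate 1 libraries, 137.7 and 150.5 in the replicate 2 libraries); CPM are not per length and are to be compared within a pseudogene.

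Windows with high HITS-CLIP levels were found in pseudogenes with few or no RNA-seq counts. No count fell on 21 of the 282 pseudogenes in any of the 5 libraries, and these held 40 windows. HMGB1P11 was one of them, with 16 windows and an authors' WT mean of up to 64.6 CPM. PTMAP6 had 4 windows and NPM1P2 1 window, at up to 2.36 and 14.4 CPM in WT. A total of 54 pseudogenes had under 10 counts over all libraries together, with 118 windows among them. RP11-529H20.3 had 41 and 9 counts in WT, 22 and 35 in P95H and 16 in the library labelled uninduced. NPM1P33, with an authors' WT mean of up to 41.2 CPM, had 5 counts in all, and NPM1P51, with up to 36.8 CPM, had 1. By contrast HERC2P3 had 26442 counts. The HITS-CLIP and RNA-seq samples were given doxycycline for different times, and the sources do not say which reads each count took in.

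**Figure D5:**
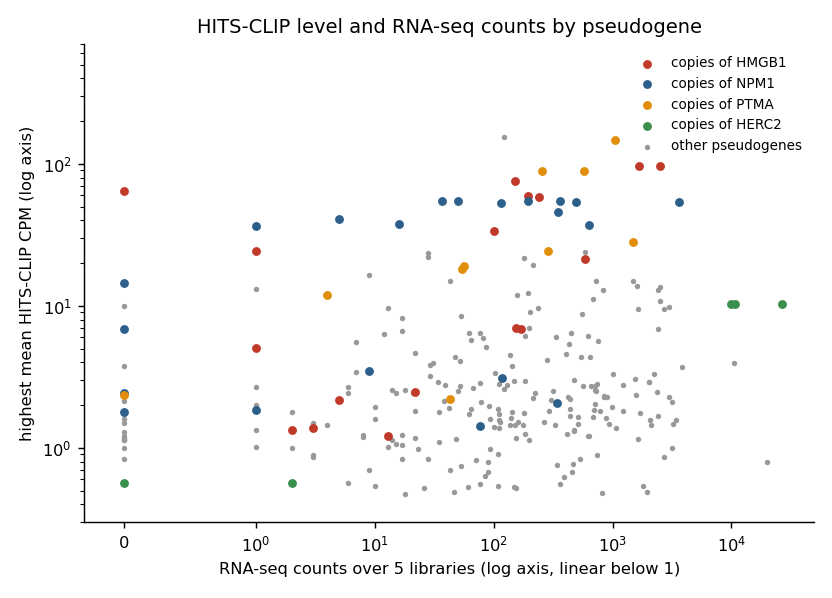
Each point is 1 of the 282 pseudogenes, with its RNA-seq counts summed over 5 libraries on the horizontal axis (log scale, linear below 1) and the highest of the authors' mean HITS-CLIP CPM among its windows on the vertical log axis. At 0 counts stand 21 pseudogenes, among them HMGB1P11 at 64.6 CPM, and the 3 copies of HERC2 with the most counts stand near 10 CPM.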

How the data were processed

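HITS-CLIP was measured in 8 samples and RNA-seq in 5, grouped by their labels. For HITS-CLIP the authors deposited their comparison and no values by sample. Per the file headers, the authors computed a log2 change (P95H relative to WT), an adjusted p-value (FDR), and the mean CPM of each genotype with its SEM, so no SD or n was computed from it. The sources do not name the total behind the CPM. For RNA-seq the authors deposited raw counts of each gene. Per the submitters' processing notes STAR 2.5.3a, TopHat2 2.0.14, edgeR and GRCh38.p3 were used, without roles. The sources do not say how multi-mapping reads and strand were treated, so counts of a pseudogene, its parent and overlapping genes may be mixed.

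The 8324 entries included 224 at a position already listed, which were dropped. Whether window coordinates count from 0 or 1 is not stated, which leaves printed positions and sequence ends uncertain by 1 base. Copy and parent windows were called close when the largest relative difference over both means and both SEMs was at most 5%. Counts were fitted in R 4.3.3 with edgeR 4.0.16 (filterByExpr, TMM, quasi-likelihood, two-sided, Benjamini-Hochberg over all genes, adjusted p under 0.05) on 2 WT and 2 P95H libraries. DESeq2 1.42.0, another normalization, no filter, a replicate block and leaving out each library were alternatives. The library labelled uninduced stayed out of the fit. CPM of RNA-seq are TMM-scaled. Tables were made in Python 3.11.15 with pandas 2.3.3 and scipy 1.17.1, and figures with matplotlib 3.10.9.

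The members, parent groups and tests were chosen with earlier results of these data known. Named were the 8 largest rises and 8 largest falls (1 window per pseudogene), the 8 pseudogenes with the most windows, the 12 parents with the most copy windows, and the 8 pseudogenes with the highest mean RNA-seq CPM. Any pseudogene past the test was also to be named, and there was none. One result that this rule takes is not reported here. Other genes, including those with no RNA-seq count and those of single groups, were named after their values were seen. Sequences came from the RefSeq promoter table (GRCh38.p14).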

Additional observations from a re-analysis of the deposited data

How the results depend on the processing

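The share of pseudogene windows higher in P95H, 14.1%, depended on what was counted. It was 26.6% with overlapping windows joined, 26.6% with each pseudogene counted once and 26.6% without the copies of PTMA, HMGB1 and NPM1, the last chosen after seeing the data. It was 11.2% at a change of at least 4-fold, 10.7% in processed and transcribed processed pseudogenes together (101 of 947) and 10.7% without windows within 5% of a parent window, also chosen after seeing the data. The cause was not tested. With an adjusted p of at most 0.01, a mean of at least 1 CPM or repeated positions kept it stayed between 12.9% and 14.1%. In RNA-seq the number of genes called was 0, with 84 under the replicate block, 15 without a filter on low counts and 0 with RLE factors, DESeq2 or any 1 library left out (0 to 0). No pseudogene with a window was called in any of these fits, and in the replicate block the smallest adjusted p among them was 0.311. Same-numbered libraries deviated together (r = 0.534). With 2 libraries per genotype both pairs must give the same r, so this is 1 value. The labels do not say that numbers mark a shared day, so the block was not the basis of a call. The counts of windows holding parent sequence, GGNG or CCNG over all members were not run, since no genome was used here. The share of windows with a change cannot be had from a table that holds changed windows, and 3 counts, or 0.0667 to 0.0802 CPM, limit what RNA-seq detects.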

Other observations

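A further 122 windows in 36 pseudogene loci were listed under another transcript class, such as processed transcript or retained intron, and so fell outside the members. They were 19 higher and 103 lower in P95H, that is 15.6% higher, with a median log2 change of -1.93. PTMAP5 had 21 of them (20 lower), with an authors' WT mean of up to 123 CPM, and HMGB1P5 had 17, all lower, at up to 84.5 CPM. ANP32BP1 and ANP32AP1, copies of genes for acidic nuclear proteins, had 8 and 6, all lower. HERC2P9 had 8 such windows, 2 higher and 6 lower, where its 11 member windows were all higher. HERC2P2 had 4, all lower, where 13 of its 15 member windows were higher. Both loci thus held windows of opposite direction. PI4KAP1 and PI4KAP2, copies of a phosphatidylinositol kinase gene, each had a window at 6.60 in the authors' deposited table, with 0 CPM in WT and 0.90 CPM in P95H. These were named after their values were seen.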
